A study of Mus musculus with 14 samples.

Results

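Foxd1 encodes a forkhead transcription factor, and its RNA was measured with RNA sequencing during the reprogramming of mouse embryonic fibroblasts. It is 1 gene of the 26962 listed in the deposited tables, taken by its symbol, and 13 of the 14 libraries list it. It was picked because its level was high at day 10 in cells with Cdk9-DN, so its own levels are given as a description with no test. All cells were OG2/129SV fibroblasts transduced with Oct4, Sox2, Klf4 and c-Myc and grown in ESC medium that contained LIF, and they differed in what was added to the 4 factors and in the day of collection. The groups were Cdk9-DN and control vector at day 3, with 1 library each, and Cdk9-DN and control vector at days 4, 5 and 10, with 2 libraries each. The labels do not say whether libraries of a group came from separate cultures, so the spread between them may be technical.

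Going by its name, Cdk9-DN is dominant-negative Cdk9, the kinase within P-TEFb that releases paused RNA polymerase II into elongation. Cdk9 itself is not listed in any of the 14 libraries, so the presence of the construct was not checked here. The libraries are bulk RNA, in which fewer cells of a type and less RNA per cell cannot be told apart. Thy1, a surface antigen of fibroblasts, had 73.3 FPKM (the unit is explained below) in the 1 Cdk9-DN library of day 4 that lists it, against 83.6 and 81.9 FPKM in control libraries, and Epcam, an epithelial adhesion molecule, had 0.203 to 0.737 FPKM in the 4 libraries of that day.

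Foxd1 belongs to the D class of forkhead factors, which bind DNA through a winged-helix domain. In the mouse embryo it marks the stromal progenitors of the kidney and patterns the temporal retina and the optic chiasm, and in facial mesenchyme it responds to Hedgehog signalling. In mouse fibroblasts given the reprogramming factors, Foxd1 has been described as a gene that is switched on during the process, with the nuclear receptor gene Nr0b1 downstream of it.

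The deposited coordinates place Foxd1 on chromosome 13 from 99124200 to 99126660 of mm9 (identifier ENSMUSG00000078302). It has 1 annotated exon and therefore no intron, and its locus of 2461 bases overlaps 0 other listed genes. The 250 bases before its start and before that of Nr0b1 are shown because these are the genes described below in most detail. They were taken from RefSeq on GRCm38.p6, a later build than that of the deposited tables, where both genes lie on the plus strand. Capitals mark matches to the motifs searched for.
Foxd1, chr13:98353995-98354244: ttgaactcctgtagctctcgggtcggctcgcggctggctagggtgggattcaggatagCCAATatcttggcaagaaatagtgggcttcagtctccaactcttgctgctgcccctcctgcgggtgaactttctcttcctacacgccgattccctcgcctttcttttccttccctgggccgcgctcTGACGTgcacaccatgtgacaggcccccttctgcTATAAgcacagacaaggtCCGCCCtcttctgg
Nr0b1, chrX:86191525-86191774: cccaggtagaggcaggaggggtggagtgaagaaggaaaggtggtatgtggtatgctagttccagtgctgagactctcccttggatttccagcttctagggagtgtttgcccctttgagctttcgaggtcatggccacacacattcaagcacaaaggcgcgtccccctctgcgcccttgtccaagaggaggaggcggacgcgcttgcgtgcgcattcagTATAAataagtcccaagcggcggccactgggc

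In both stretches TATAA begins 32 bases before the annotated start. Among 32851 RefSeq promoter stretches of the same length, 22.8% hold TATAA on either strand. The Foxd1 stretch also holds CCAAT, the NF-Y core, 192 bases before the start, and 33.8% of all stretches hold it. GGGCGG, the GC box, lies on the opposite strand 14 bases before the Foxd1 start and is held by 32.7% of stretches. TGACGT, the core of a cAMP response element, lies 66 bases before it and is held by 6.47%. CACGTG, a letter pattern bound by Myc, and TGTTTA, a forkhead core, are in neither stretch, and 6.02% and 12.03% of all stretches hold them. No pair of the marked matches overlaps. The Foxd1 stretch has 12 CpG dinucleotides, more than 66.5% of stretches, and a GC content of 57.2%. These are matches of letters and say nothing of binding.

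Levels are in FPKM, fragments scaled by transcript length and library depth, as computed by the authors, and each value comes with deposited bounds that lie 2 standard deviations either side of it. At day 3 Foxd1 had 6.53 FPKM (bounds 5.63 to 7.44) in the Cdk9-DN library, against 7.26 FPKM (6.26 to 8.27) in the control library. The bounds overlapped, so no difference was detectable at day 3 with 1 library per vector.

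At day 4 the Cdk9-DN libraries had 10.9 FPKM (9.58 to 12.2) and 9.77 FPKM (8.62 to 10.9), against 17.4 FPKM (15.7 to 19.1) and 13.3 FPKM (11.99 to 14.6) in control libraries. Both Cdk9-DN values lay below both control values, although the bounds of the higher Cdk9-DN library and the lower control library touched. The mean was 10.3 ± 0.785 FPKM with Cdk9-DN and 15.3 ± 2.89 FPKM with control vector (SD, n = 2 each). Cdk9-DN cells therefore held 0.672 times the control level.

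At day 5 the single Cdk9-DN library that lists Foxd1 had 22.7 FPKM (20.97 to 24.3), against 27.6 FPKM (25.7 to 29.5) and 29.4 FPKM (27.1 to 31.7) in control libraries. The Cdk9-DN value was again the lowest of its day, at 0.796 times the control mean, and its bounds lay apart from those of both control libraries. The other Cdk9-DN library of day 5 does not list the gene and was treated as having no value, so the level with Cdk9-DN at day 5 has no replicate.

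At day 10 the order of the vectors was the opposite. Foxd1 had 138 FPKM (134 to 142) and 133 FPKM (129 to 137) in Cdk9-DN libraries, against 17.1 FPKM (15.5 to 18.6) and 27.8 FPKM (25.9 to 29.7) in control libraries. The groups did not overlap. The mean was 136 ± 3.52 FPKM with Cdk9-DN and 22.4 ± 7.58 FPKM with control vector (SD, n = 2 each), a difference of 113 FPKM and a ratio of 6.05. Across the 4 pairings of single libraries the ratio ran between 4.80 and 8.10.

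**Figure D1:**
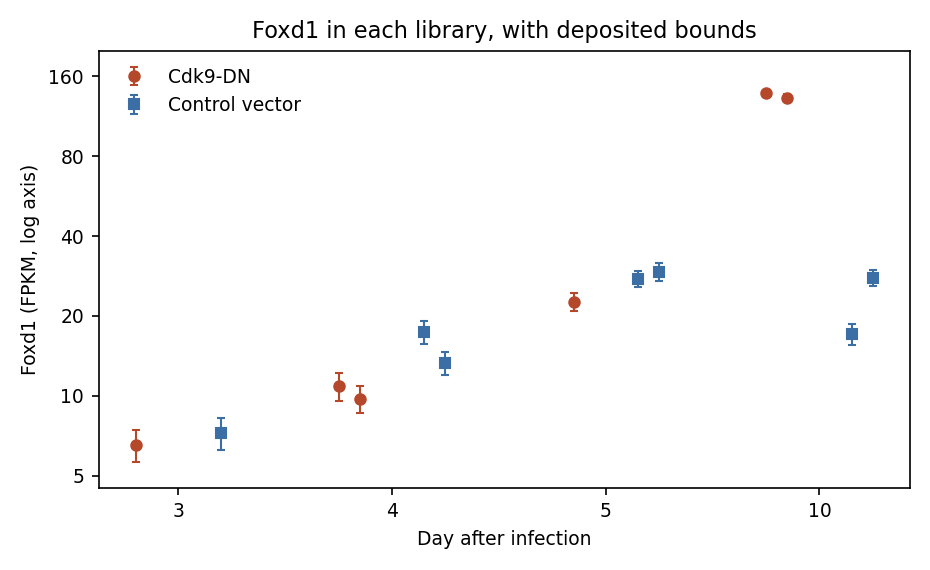
Foxd1 FPKM (log axis) in each of the 13 libraries that list it, by day after infection, with the deposited bounds as bars; Cdk9-DN stands left of control vector at each day. The Cdk9-DN libraries lie below the control libraries at days 4 and 5 and above them at day 10, where they reach 138 and 133 FPKM.

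On the scale used for the fits below, log2(FPKM + 1), the difference of Cdk9-DN minus control was -0.13 at day 3, -0.52 at day 4, -0.32 at day 5 and 2.58 at day 10. The bounds of the 4 day 10 libraries imply 4456 and 4378 fragments on Foxd1 with Cdk9-DN, against 489 and 837 with control vector, if the bounds cover counting error alone. All other libraries that list the gene imply 208 to 840 fragments. Relative counting error was thus smallest in the Cdk9-DN libraries of day 10.

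The course over time also differed by vector. With Cdk9-DN the level at day 4 was 1.58 times that at day 3, the level at day 5 was 2.195 times that at day 4, and the level at day 10 was 5.99 times that at day 5. With control vector the corresponding ratios were 2.11, 1.86 and 0.788, so the control mean was highest at day 5, although the control libraries of day 10 (17.1 and 27.8 FPKM) overlapped those of day 5 (27.6 and 29.4 FPKM). The level at day 10 was 20.8 times that at day 3 with Cdk9-DN and 3.09 times with control vector. Foxd1 RNA was thus higher at each of days 4 and 5 than at the day before it in both vectors, and beyond day 5 it was higher again with Cdk9-DN.

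In order of mean level, the 8 groups were Cdk9-DN day 3, control day 3, Cdk9-DN day 4, control day 4, control day 10, Cdk9-DN day 5, control day 5 and Cdk9-DN day 10. The bounds of neighbours overlapped between both day 3 groups, between both day 4 groups, and between control day 4, control day 10 and Cdk9-DN day 5 in turn. They lay apart between control day 3 and Cdk9-DN day 4, between Cdk9-DN day 5 and control day 5, and between control day 5 and Cdk9-DN day 10. The last step was the largest, at 4.77-fold.

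The replicates were not equally close. The Cdk9-DN libraries of day 10 differed by 0.05 on the log2 scale, and 64.0% of the 1971 genes with at least 100 implied fragments differed by more. The control libraries of day 10 differed by 0.67, and 0.650% of 2001 genes differed by more. Their bounds lay apart, as they did for 12.1% of genes in the same pair of libraries. Foxd1 was thus among the least reproducible genes of the control group at day 10 and an ordinary one in the Cdk9-DN group.

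At day 4 the replicates differed by 0.14 with Cdk9-DN, where 28.1% of 1941 genes differed by more, and by 0.36 with control vector, where 2.82% of 1880 genes differed by more. At day 5 the control libraries differed by 0.09, and 44.3% of 1811 genes differed by more. The difference between vectors at day 4, at -0.52, was not far larger than the control replicate difference of that day. The day 10 difference of 2.58 was several times the largest replicate difference of the gene.

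Among all genes, Foxd1 moved from the middle of the range to its top in Cdk9-DN cells. At day 3, 38.0% of genes with at least 1 FPKM lay below it in the Cdk9-DN library and 40.1% in the control library. At day 10 these shares were 91.5% and 90.9% in Cdk9-DN libraries, against 60.1% and 71.2% in control libraries. In Cdk9-DN libraries of day 10, 442 and 465 genes were above it, against 2109 and 1506 genes in control libraries.

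In a limma fit of the 12 libraries of days 4, 5 and 10, with adjustment after Benjamini and Hochberg and a threshold of 0.05, 28.9% of the 5740 genes tested at day 10 differed between vectors. Of the genes tested, 14.5% were higher and 14.4% lower with Cdk9-DN. Where only 1 library of a vector lists a gene, the spread behind its test comes from the other groups, and the lone library is assumed to vary like them. Foxd1 was chosen on this contrast, so nothing is read from its place, which was behind 64 genes with a higher difference. At day 4, 2 of 5950 genes passed (0.0336%), both lower, and at day 5, 10 of 5902 (0.169%), of which 0.0678% were higher and 0.102% lower, while 388 and 500 genes had an unadjusted p under 0.05. At those days 5.43% and 10.2% of genes had a lower difference than Foxd1.

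Of 5343 genes with a difference on all 3 days, 886 were below 0 at days 4 and 5 and above 0 at day 10. Counting only genes at least as low as Foxd1 at days 4 and 5 and with a difference of at least 1 at day 10 left 18, Foxd1 included. Foxd1 passes by construction, since 2 cut-offs are its own values and it was chosen on day 10, so nothing is read from the count. Its day 5 value also rests on 1 Cdk9-DN library. Most of the others among the 18 were small RNA genes or unnamed gene models, which are listed with few fragments. The other named protein-coding gene was Polr3g, a subunit of RNA polymerase III, with differences of -1.29, -0.83 and 1.73, singled out after its values were seen.

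**Figure D2:**
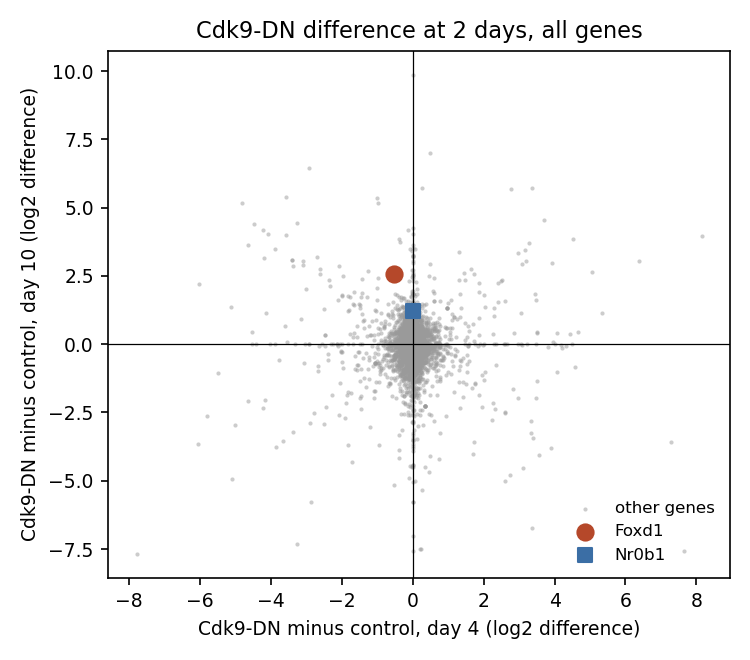
Difference of Cdk9-DN minus control on the log2(FPKM + 1) scale at day 4 (horizontal axis) and day 10 (vertical axis), 1 point per gene, with Foxd1 (circle) and Nr0b1 (square) marked. Foxd1 lies at -0.52 and 2.58, left of and above the bulk of the genes, and Nr0b1 lies at 0 and 1.22.

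Nr0b1, the nuclear receptor gene placed downstream of Foxd1 in fibroblast reprogramming, had the same order of vectors as Foxd1 at days 5 and 10. It was listed at 0 FPKM in all libraries of day 4. At day 5 it had 0.374 and 0.351 FPKM with Cdk9-DN, against 1.36 and 1.06 FPKM with control vector, a difference of -0.70 that missed the threshold (adjusted p = 0.0512, limma). At day 10 it had 10.4 and 11.4 FPKM with Cdk9-DN, against 4.29 and 3.91 FPKM with control vector. The groups did not overlap at either day, and the order of the vectors at day 10 was the opposite of that at day 5. The day 10 difference was 1.22 ± 0.0891 (SE, adjusted p = 1.65e-04). It exceeded the day 4 difference (interaction 1.22, adjusted p = 0.00135), as was so for 7.95% of 5523 genes, while 7.79% had the opposite sign (15.7% in all). Its locus is on chromosome X from 83437103 to 83441286 of mm9.

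Nr0b1 was the single higher gene of 11 tested pluripotency and reprogramming genes at day 10, while 6 were lower (4 with quantile normalization) and 4 did not pass, beside 14.5% higher and 14.4% lower of all genes. The median difference of these 11 was -0.39, against 0 over all genes tested. Dppa5a, an RNA-binding protein of embryonic stem cells, averaged 4.92 ± 0.201 FPKM with Cdk9-DN and 24.1 ± 3.79 FPKM with control vector (SD, n = 2 each), a difference of -2.08 (adjusted p = 4.87e-05, limma). Utf1, a chromatin factor of pluripotent cells, averaged 5.53 ± 0.549 FPKM with Cdk9-DN and 11.8 ± 1.52 FPKM with control vector, with a difference of -0.97 (adjusted p = 0.00500), a call that ended with a pseudocount of 0.1 (adjusted p = 0.320). Klf5, a Krüppel-like factor, differed by -0.80 (adjusted p = 0.0414). This sets 1 Cdk9-DN library (4.402 FPKM) against 1 control library (8.41 FPKM), with the spread taken from the other days. That call ended with quantile normalization (adjusted p = 0.0730, limma), with a pseudocount of 0.1 (0.0512) and with no filter on low values (0.125). It also ended without the first control library or without the second Cdk9-DN library. Those libraries do not list Klf5, so its difference stayed at -0.80 and only estimates shared over all genes changed.

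Over time, 10 of 12 tested genes of this list were higher at day 10 than at day 4 with control vector, where 50.0% of 5814 genes passed, 28.2% higher and 21.8% lower. With Cdk9-DN 7 of 11 were higher, where 38.0% of 5816 genes passed, 24.5% higher and 13.5% lower. Scaling by the median of ratios made 9 of 12 with control vector and 7 of 11 with Cdk9-DN. It also turned the split over all genes to 1393 higher and 1527 lower with control vector and to 990 higher and 1169 lower with Cdk9-DN, against 1639 and 1268 with control vector and 1423 and 785 with Cdk9-DN as deposited. Quantile normalization made the splits 1043 higher and 1632 lower with control vector and 804 higher and 1059 lower with Cdk9-DN, and the median change of all genes was then -0.11 with control vector and -0.05 with Cdk9-DN, against 0.07 and 0.11 as deposited.

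No other listed D-class gene was at a level like that of Foxd1 in these libraries. Foxd2 had 0 to 0.299 FPKM over the 14 libraries, and Foxd4 was listed at 0 in all but the 2 Cdk9-DN libraries of day 10, where it had 0.016 FPKM. Foxd3 was not listed, so its level is not known. Of 38 other forkhead genes, 22 were listed and 7 passed the filter of at least 1 FPKM in at least 2 libraries. At day 10, 6 were tested, 0 were higher with Cdk9-DN and 2 were lower, with a median difference of -0.33, beside 14.5% higher and 14.4% lower of all genes.

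Foxj1, a factor of motile cilia, averaged 2.03 ± 0.0117 FPKM with Cdk9-DN and 6.94 ± 0.497 FPKM with control vector (SD, n = 2 each), a difference of -1.39 (adjusted p = 3.68e-04, limma). Foxh1, a partner of Smads in Nodal signalling, had 1.79 FPKM in the 1 Cdk9-DN library that lists it and averaged 4.35 ± 0.303 FPKM with control vector. Its difference was -0.94 (adjusted p = 0.00311, limma), with the lone Cdk9-DN library assumed to vary like the other groups, a call that ended with a pseudocount of 0.1 (adjusted p = 0.253). Foxo1, a target of insulin signalling, averaged 3.95 ± 0.247 FPKM with Cdk9-DN and 4.46 ± 0.170 FPKM with control vector and did not pass the test (difference -0.14, adjusted p = 0.273). Foxc1, which shares chromosome 13 with Foxd1, also did not pass (difference 0.07, adjusted p = 0.750).

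The Hedgehog pathway, in which secreted ligands release Smoothened from Patched, is known to raise Foxd1 in facial mesenchyme. No ligand passed the filter, and of 20 members 9 were listed, 3 passed it and 2 were tested at day 10. Both tested members were higher with Cdk9-DN, beside 14.5% of all genes, with a median difference of 0.54. Smo, the signal transducer Smoothened, had 47.3 FPKM in the 1 Cdk9-DN library that lists it, against 34.2 and 32.9 FPKM with control vector, a difference of 0.48 ± 0.0602 (SE, adjusted p = 0.0184, limma) whose Cdk9-DN side has no replicate and takes its spread from the other groups. Gas1, a ligand co-receptor, had 1.64 and 1.65 FPKM with Cdk9-DN, against 0.648 and 0.875 FPKM with control vector, a difference of 0.59 ± 0.157 (SE, adjusted p = 0.0296).

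Gas1 did not follow Foxd1 over time. It had 8.37 and 8.02 FPKM with Cdk9-DN at day 4, against 11.8 and 8.06 FPKM with control vector, and was lower at day 10 than at day 4 with both vectors (adjusted p = 1.58e-04 with Cdk9-DN and 1.62e-05 with control vector, limma). Its call at day 10 ended without the first control library (adjusted p = 0.135), without the second (0.0527), without the first Cdk9-DN library (0.104), without the second (0.102), with quantile normalization (0.0590) and with no filter on low values (0.0932).

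Of 32 genes of the renal stroma, its capsule and the nephron progenitors beside it, 19 were listed, 14 passed the filter and 10 were tested at day 10. Of these 4 were higher with Cdk9-DN, 2 were lower and 4 did not pass, beside 14.5% higher and 14.4% lower of all genes, with a median difference of 0.06. Dcn, the matrix proteoglycan decorin, which Foxd1 represses in the stroma of the mouse kidney, had 12.5 and 13.997 FPKM with Cdk9-DN, against 3.73 and 4.42 FPKM with control vector. Its difference was 1.49 ± 0.116 (SE, adjusted p = 2.16e-04, limma), so Dcn and Foxd1 were higher in the same libraries. Unlike Foxd1, Dcn was near its day 4 level in Cdk9-DN cells (difference of day 10 from day 4 -0.23, adjusted p = 0.169) and lower in control cells (-1.71, adjusted p = 2.72e-05).

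Osr1, a factor of early kidney mesenchyme, had 1.07 and 1.18 FPKM with Cdk9-DN, against 0.501 FPKM in the 1 control library that lists it, which is assumed to vary like the other groups. Its call (adjusted p = 0.0450, limma) ended without the first or second Cdk9-DN library, with quantile normalization (0.108) and with no filter on low values (0.118). It also ended without the second control library. That library does not list Osr1, so the difference stayed at 0.50 and only estimates shared over all genes changed. The other higher members, named after their values were seen and not recomputed in other settings, were Sfrp1, a secreted Wnt antagonist (difference 0.43, adjusted p = 0.0114, limma), and Fat4, the cadherin through which stroma signals to nephron progenitors (0.36, adjusted p = 0.0129).

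The lower genes of this list were signals of the nephron lineage. Wnt4, which drives nephron progenitors to epithelium, averaged 1.91 ± 0.144 FPKM with Cdk9-DN and 3.45 ± 0.377 FPKM with control vector, a difference of -0.61 (adjusted p = 0.00350, limma). Bmp7, which maintains nephron progenitors, averaged 0.437 ± 0.0910 FPKM with Cdk9-DN and 1.12 ± 0.132 FPKM with control vector, with a difference of -0.56 (adjusted p = 0.00297), a call that ended with a pseudocount of 0.1 (adjusted p = 0.0559). Of the fitted libraries, only the control libraries of day 10 had at least 1 FPKM of Bmp7. It thus passed the filter only through the group where it was high, and nothing is read from its call.

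Of 31 genes of retinal and optic chiasm patterning, 13 were listed, 7 passed the filter and 6 were tested at day 10. Beside 14.5% of all genes, the single higher gene of the 6 was Epha3, an ephrin receptor of the retinotectal map, with 2.05 and 2.10 FPKM with Cdk9-DN, against 0.893 and 1.26 FPKM with control vector (difference 0.57, adjusted p = 0.0222, limma). That call ended without the first control library (0.112), without the first (0.0819) or second (0.0857) Cdk9-DN library and with no filter on low values (0.0668). Vax2, a factor of the ventral retina, had 10.5 and 11.0 FPKM with Cdk9-DN, against 16.6 and 15.6 FPKM with control vector, and did not pass (adjusted p = 0.0763). The median difference of the 6 was 0.11.

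Of 30 transcription factors of mesenchyme, 17 were listed and 12 tested at day 10, of which 3 were higher with Cdk9-DN, 1 was lower and 8 did not pass, beside 14.5% higher and 14.4% lower of all genes, with a median difference of 0.27. Meox2, a homeobox factor of somite and limb muscle, had 2.61 FPKM in the 1 Cdk9-DN library that lists it, against 0.417 and 0.456 FPKM with control vector (difference 1.33, adjusted p = 1.65e-04, limma), again with the spread of the lone library taken from the other groups. Twist1, a factor of cranial mesenchyme, had 23.6 and 22.2 FPKM with Cdk9-DN, against 11.6 and 13.4 FPKM with control vector (difference 0.83, adjusted p = 0.0180). Alx4, a homeobox factor of facial mesenchyme, averaged 0.754 FPKM with Cdk9-DN and 0.350 FPKM with control vector (difference 0.38, adjusted p = 0.0249). Barx1, a homeobox factor of jaw and stomach mesenchyme, averaged 0.804 ± 0.313 FPKM with Cdk9-DN and 1.59 ± 0.321 FPKM with control vector (difference -0.53, adjusted p = 0.0492).

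The calls on Twist1, Alx4 and Barx1 did not hold in every setting. That on Twist1 ended without the first control library (0.0877), without the first (0.0841) or second (0.0628) Cdk9-DN library and with no filter (0.0671). That on Alx4 ended without the first (0.0502) or second (0.0972) control library, without the first (0.0876) or second (0.0795) Cdk9-DN library, with quantile normalization (0.0859) and with no filter (0.0543). That on Barx1 ended without the first (0.207) or second (0.0563) control library, without the first Cdk9-DN library (0.219), with a pseudocount of 0.1 (0.0614), with quantile normalization (0.0520), with no filter (0.1495) and among genes listed in all 12 libraries (0.0646).

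With control vector 10 of the 12 factors were lower at day 10 than at day 4 and 0 were higher, beside 21.8% lower and 28.2% higher of all genes, and the median difference was -0.99. With Cdk9-DN 7 of 12 were lower and 0 were higher, beside 13.5% lower and 24.5% higher of all genes, and the median was -0.81. With scaling by the median of ratios the lower factors were 9 with Cdk9-DN and 10 with control vector, and with quantile normalization 10 with each, while the split over all genes turned to more lower than higher, as given above. Foxd1 was higher at day 10 than at day 4 with Cdk9-DN, by 3.60. With control vector its mean differed by 0.49 (0.36 and 0.33 under the other scalings), less than the 0.67 between the control libraries of day 10. The control libraries of these days overlapped, since the first of day 10 had 17.1 FPKM and the first of day 4 had 17.4 FPKM.

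**Figure D3:**
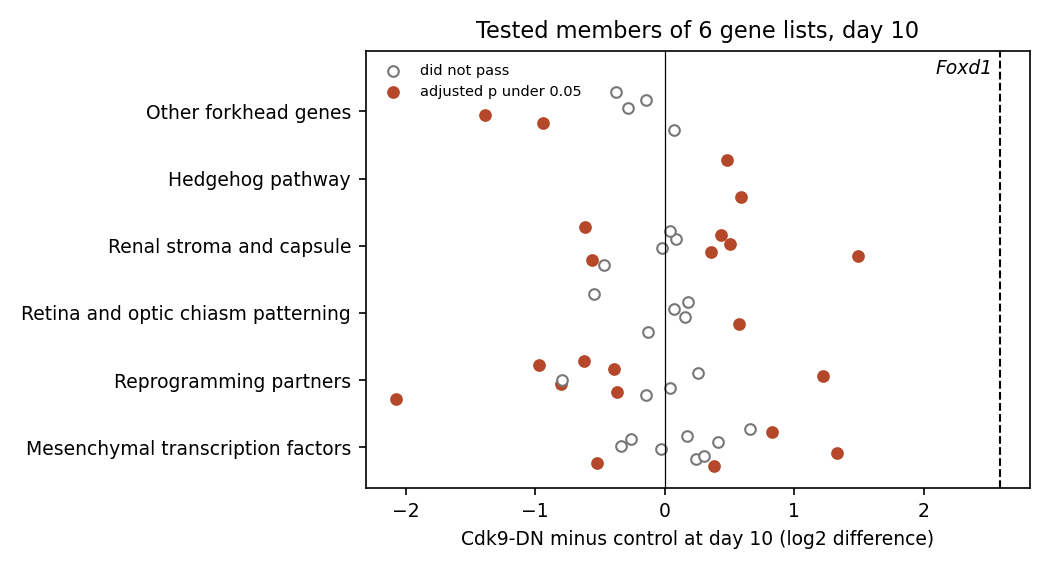
Difference of Cdk9-DN minus control at day 10 on the log2(FPKM + 1) scale, 1 point per tested gene in each of 6 lists (filled where adjusted p was under 0.05, open otherwise), with the level of Foxd1 at 2.58 as a dashed line. No tested member of these lists reaches the line, but Foxd1 was chosen on this contrast, so nothing is read from that.

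Markers of several cell types moved with the vector at day 10, and their part in the Foxd1 level was not tested. All 5 tested epithelial markers of 11 were lower with Cdk9-DN, beside 14.4% of all genes, with a median difference of -1.79. The summed level of the 3 listed in every library was 58.5 to 65.2 FPKM with Cdk9-DN, against 262 to 271 FPKM with control vector. Krt18, a keratin of simple epithelia, averaged 6.71 ± 0.552 FPKM with Cdk9-DN and 85.2 ± 1.96 FPKM with control vector (SD, n = 2 each, adjusted p = 8.33e-06, limma). Of the 15 fibroblast markers 6 were tested, 3 were higher (Dcn, the N-cadherin gene Cdh2 and the proteoglycan gene Lum), and the median was 0.76, beside 14.5% higher of all genes. Cdh2 had 9.35 FPKM in the 1 Cdk9-DN library that lists it, against 2.57 and 2.54 FPKM in control libraries. Its Cdk9-DN side thus has no replicate and takes its spread from the other groups. The call on Lum (adjusted p = 0.0130) ended without the second control (0.0572) or the second Cdk9-DN library (0.0607). The 2 listed in every library summed to 13.3 to 14.98 FPKM with Cdk9-DN, against 3.85 to 4.42 FPKM with control vector. Thy1 had 18.0 and 16.8 FPKM with Cdk9-DN, against 16.3 FPKM in the 1 control library that lists it, and did not pass (adjusted p = 0.364).

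Of 13 neural markers 4 were tested, of which 2 were higher, 1 lower and 1 did not pass, beside 14.5% higher and 14.4% lower of all genes. Of the 2 higher, Neurog2 had at least 1 FPKM only in the Cdk9-DN libraries of day 10 (1.69 and 1.28 FPKM). It thus passed the filter only through the group where it was high, and nothing is read from its call. The 5 neural markers listed in every library summed to 15.4 to 15.7 FPKM with Cdk9-DN, with 1 member at 0, against 3.06 to 3.20 FPKM with control vector. Nefl, the neurofilament light chain, averaged 13.4 ± 0.158 FPKM with Cdk9-DN and 1.91 ± 0.158 FPKM with control vector (difference 2.31, adjusted p = 4.96e-06, limma), and made up most of that sum. Its partner Nefm, the 1 lower marker, was listed at 0 in both Cdk9-DN libraries and averaged 0.652 FPKM with control vector. The listed locus of Nefm spans that of Nefl, so fragments may not be assigned between them with certainty, and no contrast between them is read from these values. Of 8 neural crest markers 3 were tested and did not pass, with a median difference of -0.08: Tfap2a (adjusted p = 0.809, limma), Sox9 (0.593) and Ngfr (0.103). The 2 listed in every library summed to 0.814 to 0.873 FPKM with Cdk9-DN, against 0.380 to 0.610 FPKM with control vector. Of these, Sox10 had 0.642 and 0.670 FPKM with Cdk9-DN, against 0.331 and 0.190 FPKM with control vector, and Pax3 had 0.231 and 0.144 FPKM with Cdk9-DN, against 0.278 and 0.190 FPKM with control vector. The 3 endothelial and blood markers of 9 listed in every library summed to 1.09 to 1.24 FPKM with Cdk9-DN, against 3.82 to 4.35 FPKM with control vector, mostly as Cldn5. Of those not listed in every library, Tek had 23.2 FPKM in 1 Cdk9-DN library, against 13.9 FPKM in 1 control library. Cd68 went the other way, with 8.70 FPKM in 1 Cdk9-DN library, against 42.0 and 39.0 FPKM in control libraries. Of 9 smooth muscle and pericyte markers 4 were tested, of which 0 were higher, 1 was lower and 3 did not pass, beside the same shares of all genes. The lower one, Cnn1, had 1.54 and 1.45 FPKM with Cdk9-DN, against 3.15 and 3.03 FPKM with control vector (difference -0.71, adjusted p = 0.00418, limma). Rgs5, the single marker of these 9 listed in every library, had 0.643 and 0.944 FPKM with Cdk9-DN, against 0.994 and 0.910 FPKM with control vector.

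Genes were also ranked by how closely their level followed that of Foxd1, with Pearson's r over log2(FPKM + 1) in the 13 libraries that list it. The ranking covered the 1758 genes that passed the expression filter, were listed in all 13 and had symbols not of the Gm or Rik type. Of these, 5 had an r of at least 0.9 and 9 an r of -0.9 or below, and the median r was 0.18. The libraries share days and vectors, so r is given without a test, and nothing is read from it about function or control. Aldh1a1, which makes retinoic acid from retinaldehyde, was closest (r = 0.968). It had 6.36 and 8.32 FPKM in Cdk9-DN libraries of day 10, against 2.53 and 3.63 FPKM in control libraries, and like Foxd1 it was higher in the second control library than in the first. At day 4 it had 1.01 and 1.23 FPKM with Cdk9-DN, against 1.59 and 1.97 FPKM with control vector.

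Sv2b, a synaptic vesicle glycoprotein, came next (r = 0.941), with 1.40 and 1.77 FPKM with Cdk9-DN at day 10, against 0.524 and 0.548 FPKM with control vector. It passed the expression filter only through these 2 Cdk9-DN libraries, on which Foxd1 was chosen, so nothing is read from its place. Shisa3, whose family attenuates Wnt and FGF receptors, followed (r = 0.935), with 32.8 and 31.7 FPKM with Cdk9-DN, against 12.9 and 12.4 FPKM with control vector. At day 4 Shisa3 had 2.06 and 2.03 FPKM with Cdk9-DN, against 2.99 and 3.24 FPKM with control vector, so its vectors were in the same order as those of Foxd1 at both days. Pcyt1b, an enzyme of phosphatidylcholine synthesis, had an r of 0.916, and Hpdl, a mitochondrial dioxygenase-like protein, one of 0.909. The next were H3f3c (0.897), H3f3a-ps1 (0.895) and H3f3a-ps2 (0.894), near-identical copies of the histone H3.3 genes among which reads cannot be assigned with certainty.

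Among the genes that ran opposite to Foxd1, B4galt1, a Golgi galactosyltransferase, had the lowest r (-0.970). It had 9.04 and 9.52 FPKM with Cdk9-DN at day 10, against 15.2 and 15.4 FPKM with control vector. Murc, a caveolar coat protein of muscle, had an r of -0.955, Glipr2, a Golgi membrane protein, one of -0.951, and Klhdc8a, a kelch-domain protein, one of -0.944. Nr0b1 had rank 16 in likeness, with an r of 0.872 and a rank correlation of 0.722. Its rank was 97 by rank correlation, 24 with a pseudocount of 0.1 and 35 over days 4, 5 and 10 alone. The ranking rested in large part on the 2 Cdk9-DN libraries of day 10, on which Foxd1 was chosen. Without them, an alternative chosen after seeing the data, the r was 0.923 for Aldh1a1, 0.763 for Sv2b, 0.867 for Shisa3 and 0.620 for Nr0b1. The rank of Nr0b1 was then 213, and 2 of the 8 closest genes were the same.

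**Figure D4:**
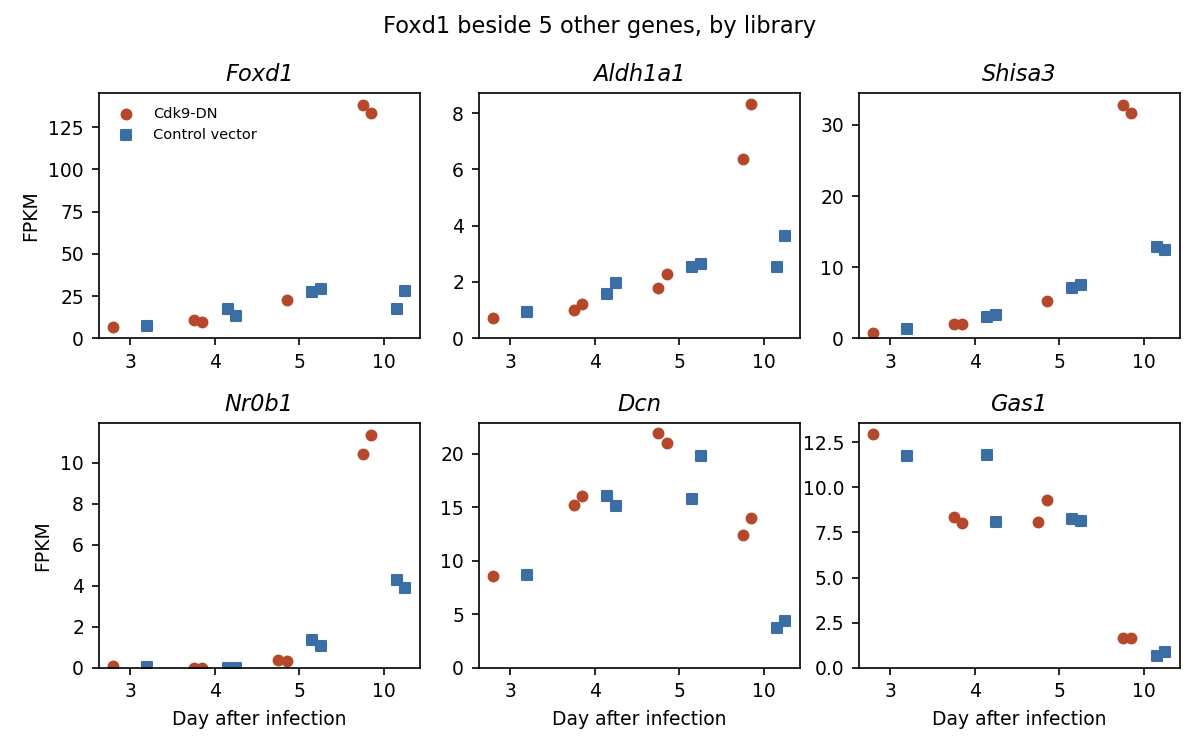
FPKM (linear axes from 0, each with its own range) in each library by day for Foxd1, Aldh1a1, Shisa3, Nr0b1, Dcn and Gas1, with Cdk9-DN left of control vector at each day. Foxd1, Aldh1a1, Shisa3 and Nr0b1 are higher with Cdk9-DN at day 10 and higher than at day 4, whereas Gas1 is lower at day 10 than at day 4 with both vectors, and Dcn at day 10 is at 12.5 and 13.997 FPKM with Cdk9-DN, against 3.73 and 4.42 FPKM with control vector.

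Of the 3 nearest listed genes on each side of Foxd1, only Gm17290 had values above 0 in all 14 libraries. The nearest listed gene, Utp15, a ribosome assembly factor, ends 91253 bases before it and had 10.4 FPKM in both Cdk9-DN libraries of day 10, while the control libraries of day 10 do not list it. Rgnef, a guanine nucleotide exchange factor 148080 bases before it, was listed in 5 libraries. Gm17290, 593280 bases before it, had 73.0 and 74.3 FPKM with Cdk9-DN at day 10, against 85.5 and 76.9 FPKM with control vector, a difference of -0.14 that did not pass (adjusted p = 0.333, limma) and was 0.06 with quantile normalization. Its level was higher at day 10 than at day 4 with control vector (0.76, adjusted p = 4.71e-04, limma) and with Cdk9-DN (0.62, adjusted p = 0.00197). Of all genes, 28.2% were higher with control vector and 24.5% with Cdk9-DN. On the other side, AC130536.1 and Tmem174, 203649 and 278273 bases away, were listed at 0 in all 14 libraries, and Tmem171, 329530 bases away, was listed at 0 in 3 libraries.

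The libraries themselves were alike in most respects. Their bounds imply 8.79 to 12.96 M fragments each, and 4947 to 5292 genes had at least 1 FPKM. The 10 highest genes took 33.4% to 76.1% of the summed FPKM, and the highest share was that of the second control library of day 5. The sensitivity of the Foxd1 difference at day 10 to any 1 library was set by the control group, as it was 2.25 without the first control library and 2.92 without the second.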

How the data were processed

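Reads were handled with CASAVA 1.8.2, TopHat2 2.0.10 and Cufflinks 2.2.1, and the builds are named mm9 and NCBIM37, per the submitters' processing notes. The deposited values are FPKM computed by the authors, with bounds 2 standard deviations either side, and give no read counts. Depth and fragments per gene were derived from these bounds and cover counting error only.

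Entries of 16 identifiers were summed and 1 failed entry was left out. A gene not listed in a library has no value there. The 12 libraries of days 4, 5 and 10 were fitted as 6 groups in limma 3.58.1 (R 4.3.3) after taking log2(FPKM + 1), with a variance trend along intensity; this scale understates the change of low genes. The 7460 genes with at least 1 FPKM in at least 2 libraries were kept, and every fit used the libraries with a value and needed 2 or more residual degrees of freedom (prior degrees of freedom 1.15). Tests were two-sided, adjusted after Benjamini and Hochberg over all genes, with a threshold of 0.05. The single libraries of day 3 were not tested. The procedure was tested on simulated data. Python 3.11.15 with pandas 2.3.3 was used for joining.

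Named genes are Foxd1, the 8 most like and 4 most opposite genes, Nr0b1, Foxo1, the D-class genes, 3 neighbours on each side, and, per list, at most 4 members called at day 10, by size, or failing any call at most 2 by mean level. Foxc1 and Vax2 were named outside this rule. Other genes outside it are said to be so or serve as marker values. Foxd1 and the lists were chosen with earlier results of these data known. Alternatives were other pseudocounts, filters and scalings, a replicate block and leaving out each library.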

Additional observations from a re-analysis of the deposited data

Results flagged for a closer look

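The difference between vectors in Foxd1 lay in opposite directions at different days, with no overlap of the libraries. The day 10 difference exceeded the day 4 difference by 3.10 and the day 5 difference by 2.90 on the log2(FPKM + 1) scale. These shifts were not tested, since the gene was chosen for them.

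For the named genes of the lists and Nr0b1 the day 10 difference minus the day 4 difference was tested as an interaction term in limma, in which 15.7% of 5523 genes passed, 7.95% upwards and 7.79% downwards. The term was above 0, so that the difference was higher at day 10, for Nr0b1 (1.22, adjusted p = 0.00135), Dcn (1.48), Meox2 (1.68), Lum (1.01), Gas1 (0.82, adjusted p = 0.0485), Smo (0.55), Nefl (2.42), Neurog2 (0.92) and Ngfr (0.72). It was below 0 for the forkhead genes Foxj1 (-1.48) and Foxh1 (-0.97), for the nephron signals Wnt4 (-0.86) and Bmp7 (-0.63), and for the pluripotency genes Dppa5a (-2.05) and Utf1 (-1.12). It was also below 0 for the epithelial genes Krt18 (-3.60), Cldn6 (-2.50), Cldn4 (-1.93) and Cldn3 (-1.56), for the endothelial gene Cldn5 (-1.27) and for the smooth muscle gene Cnn1 (-0.87). For these named genes adjusted p ran from 4.11e-05 (Nefl) to 0.0485 (Gas1). Other list members that passed were Sfrp1 (0.62) and Fat4 (0.44) above 0 and Zfp42 (-0.58) and Krt8 (-0.59) below 0. Neurog2, Bmp7 and Cldn5 passed the expression filter only through the day 10 group where they were high, so nothing is read from their terms. At day 10 Ngfr has a single library with each vector, so its term sets unreplicated groups against each other. At least one group of the term is also a single library for Smo, Meox2, Foxh1, Foxj1, Cldn6, Krt8 and Cnn1. For all of these the spread comes from other groups, and the terms of single genes were not recomputed in other settings.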

How the results depend on the processing

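The Foxd1 differences kept their direction in every setting run. Leaving out 1 library gave -0.70 to -0.34 at day 4, -0.36 to -0.27 at day 5 and 2.25 to 2.92 at day 10. The counts of genes passing moved more, with 2 at day 4, 10 at day 5, 1658 at day 10, 869 for the interaction, 2907 for the control change and 2208 for the Cdk9-DN change as reported. Day 4 gave 6 with a pseudocount of 0.1, 18 with no filter, 1 among genes listed in all 12 libraries, and 6 to 10 without 1 library. Day 5 gave 24 with no filter, 3 among those genes, and 9 to 19 without 1 library. Genes listed in all 12 libraries gave 768 at day 10, 396 for the interaction, 1498 for the control change and 1141 for the Cdk9-DN change, where fewer genes were tested. Without 1 library day 10 gave 976 to 1250 and the interaction 547 to 756.

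Same-numbered replicates did not deviate together, with correlations of -0.011 at day 4, 0.0336 at day 5 and -0.0832 at day 10. These values give no sign of pairing, but they cannot show whether same-numbered libraries were prepared together, which the labels do not say. With the replicate number as a block, 2 genes passed at day 4, 6 at day 5, 1397 at day 10 and 719 for the interaction. The calls on Osr1 (adjusted p = 0.0807), Klf5 (0.0715) and Barx1 (0.0756) ended with the block. Of 28 named genes called at day 10, 11 lost the call in some setting, and 0 of their 259 values changed sign. Lum lost it without the second control (0.0572) or the second Cdk9-DN library (0.0607), and Ngfr passed with quantile normalization (0.0484). The closest genes shared with those reported were 5 of 8 by rank correlation, 8 with a pseudocount of 0.1 and 2 over days 4, 5 and 10 alone. Depth limits the low genes most, since a level under 1 FPKM rests on few fragments.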
